A study of Mus musculus with 6 samples.

Results

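Genomic imprinting leaves a gene transcribed from only one of its parental copies, and many imprinted genes of the mouse regulate how fast the fetus grows. As background, paternally expressed genes such as Igf2 (insulin-like growth factor 2) and Plagl1 (a zinc finger transcription factor) tend to promote growth, and maternally expressed genes such as Igf2r (the receptor that clears IGF2), Cdkn1c (the cell cycle inhibitor p57) and Grb10 (an adaptor that dampens insulin and IGF signaling) tend to restrain it. The genes lie in clusters in which a long noncoding RNA and its coding neighbors are usually expressed from opposite parental copies. The 36 genes described here were chosen by symbol as imprinted genes of the known mouse clusters, a rule that uses no measured value. The list was nevertheless written with earlier results of these data known. All 36 were found among the 55487 gene IDs of the count table, and all 36 passed the filter of at least 10 counts summed over the libraries, as did 26596 genes in all. Of the 36, 21 are known as paternally expressed, 12 as maternally expressed, and 3 as dependent on isoform or tissue; 7 are noncoding. The libraries do not separate the parental copies, so each value is the sum of both.

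RNA was sequenced from the rib cage of mouse embryos at 16.5 dpc (days post coitum) in 2 groups of 3 embryos. The controls, labelled wild type, were embryos E420, E434 and E435. The mutants were E423, E433 and E440, labelled Col2-cre;Foxc1-/-;Foxc2-/-, in which Foxc1 and Foxc2, a pair of forkhead transcription factor genes, are deleted in cells that have expressed the Col2-cre transgene, mainly the chondroprogenitors. In the cross that was used, the mothers carried floxed alleles of both genes and the fathers carried Col2-cre and 1 deleted allele of each, on a mixed C57B6 and Black Swiss background, so every embryo of such a cross receives floxed alleles from its mother. The comparison asks how the rib cage differs when chondroprogenitors lack both factors, and here it is read for the imprinted genes. Values are always listed in the order E420, E434, E435 for the controls and E423, E433, E440 for the mutants. They are CPM values, the reads of a gene divided by the assigned reads of its library after a TMM correction of that total and put on one common scale, unless a sentence says otherwise. In bulk RNA, fewer cells of a type and less RNA per cell cannot be told apart.

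Total counts lay between 37853988 and 47794799 per library. Foxc1 measured 23.1, 36.9 and 24.2 CPM in controls against 3.56, 9.61 and 3.51 in mutants, and Foxc2 measured 1.99, 4.83 and 3.22 CPM and then 0.650, 1.14 and 0.737 CPM, so every library followed its label. Control E434 and mutant E433 stood apart from the other libraries of their groups. The summed level of 15 early chondrocyte markers was 28700 CPM in E434 against 2190 and 2090 CPM in the other controls, and 10700 CPM in E433 against 753 and 727 CPM in the other mutants. E433 also held 791 CPM of 10 hepatocyte markers, against 58.9 to 90.1 CPM in the other libraries. Markers of bone cells (10 genes) summed to 1650, 1710 and 1720 CPM in controls against 852, 349 and 843 in mutants. Keratinocyte markers (10 genes) summed to 29000 and 29100 CPM in E423 and E440 against 24.6 to 7020 CPM elsewhere, and adipocyte markers (8 genes) to 664 and 681 CPM against 141 to 218 CPM. None of the markers in these lists was at or under 3 counts in every library. Mutants E423 and E440 were the most alike pair: 12.2% of 16469 genes differed between them beyond the 5% point of counting error, against 18.8% for E420 and E435 and 42.8% to 61.9% for every other pair. Both pairs thus differed by more than counting error and were kept as separate samples, as labelled. That difference does not show that the libraries of a pair are independent of each other. The study compared littermates, but the sources used here do not say which embryos shared a litter.

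Measured per length of transcript, imprinted RNAs were among the most abundant in the rib cage. On the TPM scale, where transcripts are weighed by length and scaled to one total, H19, the maternally expressed noncoding RNA beside Igf2, averaged 10530 ± 2078 TPM in the controls (SD, n = 3) and ranked 3 among 55487 genes. Igf2 averaged 3438 ± 748 TPM and ranked 25. Dlk1, a membrane protein related to the Notch ligands, followed with 2648 ± 440 TPM at rank 37, Cdkn1c with 2356 ± 140 TPM at rank 46, Gnas (the stimulatory G protein subunit) with 2117 ± 250 TPM at rank 61, and the noncoding RNA Rian with 1629 ± 145 TPM at rank 97. These 6 genes stood in the top 100. In the controls 14 of the 36 genes exceeded 100 TPM, 13 lay between 10 and 100 TPM, and 9 were under 10 TPM. The lowest were Ascl2, a transcription factor of the placenta, at 0.39 ± 0.12 TPM, and Nap1l5, a nucleosome assembly protein gene, at 0.35 ± 0.12 TPM. Ascl2, Nap1l5, Phlda2 and the transporter gene Slc22a18 had at most 71 reads in any library.

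**Figure D1:**
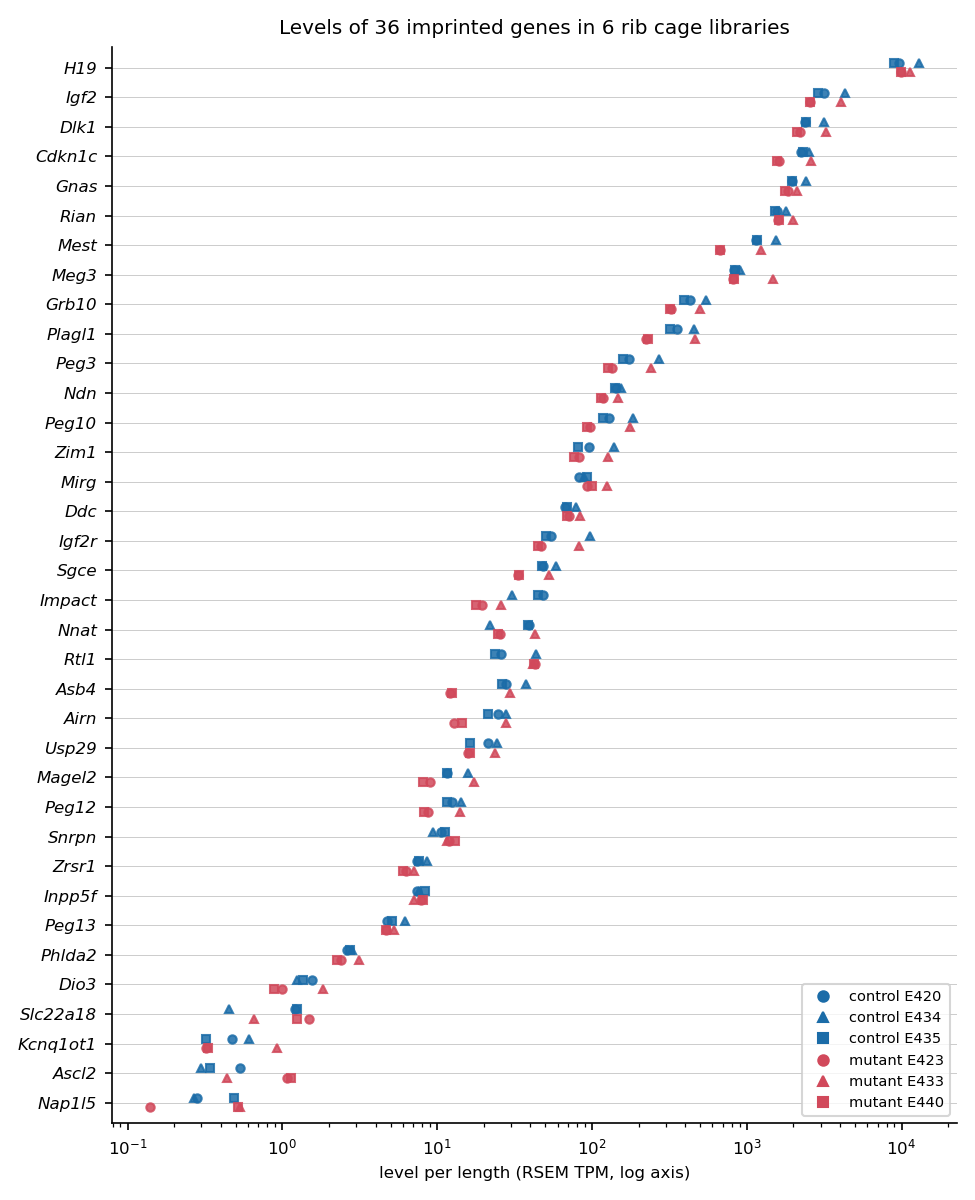
Level per length of transcript (RSEM TPM, log axis) of the 36 imprinted genes in each of the 6 libraries, ordered by the control mean; blue points are controls, red points are mutants, and triangles mark E434 and E433. The levels run from under 1 TPM for Nap1l5 to about 10530 TPM for H19, and for most genes the triangles lie to the right of the other symbols of their color.

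No imprinted gene passed both limits of the comparison, an adjusted p under 0.1 together with a change of 1 or more on the log2 scale, up or down (edgeR quasi-likelihood test, Benjamini-Hochberg over 26596 genes). Over all genes tested, 0.0639% passed both. The deleted genes themselves did not pass the limit on the adjusted p. By edgeR, Foxc1 had a log2 fold change of -2.34 ± 0.45 (SE, adjusted p = 0.235) and Foxc2 one of -1.99 ± 0.39 (adjusted p = 0.239). By DESeq2 their adjusted p-values were 9.63e-07 and 0.000207. A member that was not called is therefore not shown to be unchanged. No member had an adjusted p under 0.1, against 0.0902% of all genes, and 3 had an unadjusted p under 0.05, against 10.6% of all genes: Impact and Zrsr1 with lower values in the mutants (4.7% of all genes) and Mirg with higher values (5.9%). With DESeq2, 1 member (Impact) had an adjusted p under 0.1, against 3.57% of all genes, and 7 members had an unadjusted p under 0.05, against 11.1%. The 3 mutant libraries lay entirely below the 3 controls for Impact, Zrsr1 and Ndn and entirely above them for Mirg. These 4 of 36 genes compare with 15.0% of all genes whose groups did not overlap, 8.21% downward and 6.81% upward. Both shares are near their backgrounds and say nothing particular about imprinted genes.

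The log2 fold change (mutant over control) was below 0 for 24 of the 36 genes, against 48.8% of all genes. Among genes with a mean of at least 10 CPM, a background chosen after the data were seen, it was below 0 for 21 of 29 members and for 54.1% of all such genes. The median of the members was -0.16, against 0.008 over all genes tested. Paternally expressed genes had a median of -0.18 with 17 of 21 below 0. Maternally expressed genes had a median of -0.06 with 6 of 12 below 0. The 7 growth promoting genes of the set (Igf2, Dlk1, Mest, Peg3, Plagl1, Rtl1 and Peg10) had a median of -0.21, and the 5 growth restraining ones (Igf2r, H19, Cdkn1c, Grb10 and Phlda2) a median of -0.18. Of the former 6 of 7 were below 0, with Rtl1 at 0.51, and of the latter 4 of 5, with H19 at 0.02. The noncoding members had a median of 0.12 with 5 of 7 above 0. The median of all members was -0.00 without control E434, -0.07 without E423, -0.08 without E440 and -0.30 without E433, but -0.17 without E434 and E433 together, and -0.01 with the early chondrocyte markers as a covariate.

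**Figure D2:**
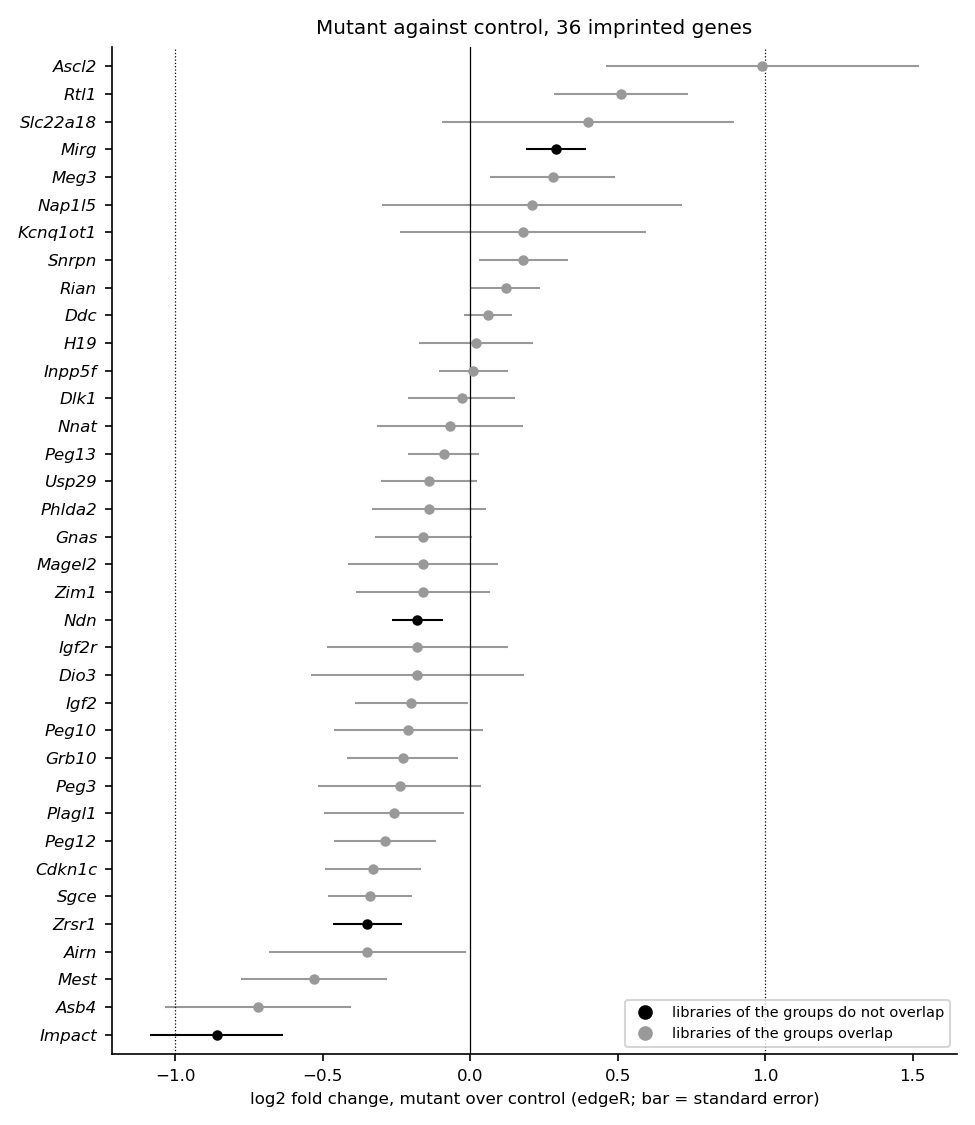
Log2 fold change of the 36 imprinted genes, mutants (n = 3) over controls (n = 3), with the standard error of the edgeR fit as bars; dotted lines mark a log2 fold change of 1 in either direction, and black points are genes whose libraries do not overlap between the groups. Only Impact, Zrsr1, Ndn and Mirg are black, and no point passes a dotted line.

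Impact, a paternally expressed gene on chromosome 18 whose protein regulates translation under nutrient stress, had the lowest ratio of the set. It measured 106, 60.9 and 107 CPM in controls against 47.7, 57.2 and 46.2 in mutants. Control E434 was the nearest control, 3.65 CPM above mutant E433, and the other controls were far above all mutants. Its log2 fold change was -0.86 ± 0.23 (SE) with an adjusted p of 0.366 by edgeR and 0.0134 by DESeq2. In this gene alone among the members did the choice between the 2 tools decide whether the adjusted p was under 0.1. Impact kept its direction whichever library was left out, with log2 fold changes from -1.08 to -0.73.

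Zrsr1, an intronless paternally expressed gene for a splicing factor related protein, lies inside an intron of Commd1 on chromosome 11 (GRCm38, 22972005 to 22976496). It measured 9.26, 9.69 and 8.82 CPM in controls against 7.07, 7.84 and 6.81 in mutants. The log2 fold change was -0.35 ± 0.12 (SE, adjusted p = 0.412 by edgeR). E434 and E433 were only slightly above the other libraries here, so Zrsr1 was among the steadiest genes within each group. Annotated Commd1 exons share 9.2% of its exon bases.

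In the Igf2-H19 cluster on chromosome 7, neither gene separated the groups. Igf2 (142650766 to 142666816, minus strand) measured 393, 554 and 359 CPM in controls against 364, 438 and 334 in mutants (log2 fold change -0.20 ± 0.19). These reads are a small part of the RNA that RSEM assigned to Igf2, as described below, so the CPM levels of Igf2 and H19 are not comparable. H19 measured 11610, 15400 and 11150 CPM in controls against 12950, 12880 and 12980 in mutants (log2 fold change 0.02 ± 0.19). The 3 mutant libraries were nearly equal in H19 while E434 led the controls by far. H19 also carries a microRNA hairpin in an exon, and its 2 mature products are printed here because they are read from the most abundant imprinted RNA of these libraries. Their sequences come from RefSeq on GRCm38.p6, with the seed (bases 2 to 8) in capitals, and both lie on the minus strand at chr7:142577112-142577133 and chr7:142577078-142577099.
miR-675-5p: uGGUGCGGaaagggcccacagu
miR-675-3p: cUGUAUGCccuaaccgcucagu

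In the Igf2r-Airn cluster on chromosome 17, the noncoding RNA Airn is made from the paternal copy, overlaps Igf2r in antisense and silences it there. Igf2r measured 363, 643 and 338 CPM in controls against 332, 526 and 325 in mutants. Airn measured 18.02, 21.1 and 14.9 CPM in controls against 9.74, 22.1 and 10.6 in mutants. E434 and E433 were the highest libraries of their groups for both genes, and the groups overlapped for both. The log2 fold changes were -0.18 ± 0.31 for Igf2r and -0.35 ± 0.33 for Airn. Without E433 the value for Airn was -0.82 (adjusted p = 0.0527 by edgeR), and without E434 it was -0.218 (adjusted p = 0.871).

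The Dlk1-Dio3 cluster on chromosome 12 held 4 of the 12 members with a log2 fold change above 0 (Mirg, Meg3, Rian and Rtl1). Its maternally expressed noncoding RNAs, Meg3, Rian and Mirg, are hosts of small RNAs. Mirg measured 62.6, 64.3 and 70.0 CPM in controls against 73.0, 90.4 and 76.6 in mutants, so that every mutant was above every control, by the least between control E435 and mutant E423. Its log2 fold change was 0.29 ± 0.10 (SE, adjusted p = 0.429 by edgeR). Meg3 measured 886, 961 and 911 CPM in controls against 909, 1504 and 927 in mutants. Only E433 stood out there, and without it the log2 fold change of Meg3 went from 0.28 to 0.00. Rian measured 1759, 2002 and 1774 CPM in controls against 1924, 2126 and 1960 in mutants (log2 fold change 0.12 ± 0.12).

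The 3 paternally expressed coding genes of this cluster differed in the sign of their ratios. Rtl1, a gene derived from a retrotransposon and needed in the placenta and in muscle, measured 108, 178 and 100 CPM in controls against 193, 165 and 190 in mutants. The exception to higher mutant values was E434, which lay above mutant E433. The log2 fold change of Rtl1 was 0.51 ± 0.23 (SE, adjusted p = 0.494 by edgeR), and without E434 it was 0.82. Skeletal muscle markers (10 genes) had a similar order, with 13900, 23100 and 14100 CPM in controls against 31700, 18100 and 30900 in mutants, and their part in the Rtl1 values was not tested. Dlk1 measured 2352, 3125 and 2445 CPM in controls against 2363, 3080 and 2291 in mutants (log2 fold change -0.03 ± 0.18). Dio3, the enzyme that inactivates thyroid hormone, had only 49 to 105 reads per library and a log2 fold change of -0.18 ± 0.36.

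Rtl1 has an antisense partner on the maternal copy, whose transcript carries microRNAs that are fully complementary to the Rtl1 transcript. The RefSeq microRNA table (GRCm38.p6) placed 11 mature microRNAs on the plus strand within the Rtl1 exons (109589193 to 109600330, minus strand). All 11 lay inside the coding sequence of Rtl1. They are perfect complements of its transcript, which follows from their place on the opposite strand of its exons. They are shown because Rtl1 had the largest positive log2 fold change among members above 10 CPM, and because counts made without strand cannot tell Rtl1 from antisense RNA over the same exons. The seeds, bases 2 to 8, are in capitals, and the 11 seeds are all different. The microRNAs run from chr12:109590459-109590479 (miR-431-5p) to chr12:109595366-109595387 (miR-136-3p), in this order.
miR-431-5p: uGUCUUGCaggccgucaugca
miR-431-3p: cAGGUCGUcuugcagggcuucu
miR-433-5p: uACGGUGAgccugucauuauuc
miR-433-3p: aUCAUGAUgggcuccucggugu
miR-127-5p: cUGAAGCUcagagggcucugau
miR-127-3p: uCGGAUCCgucugagcuuggcu
miR-434-5p: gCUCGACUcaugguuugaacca
miR-434-3p: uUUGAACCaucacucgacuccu
miR-432: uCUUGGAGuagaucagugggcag
miR-136-5p: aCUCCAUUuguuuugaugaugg
miR-136-3p: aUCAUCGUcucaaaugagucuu

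The other transcripts of the cluster carry microRNAs on their own strand: 26 mature microRNAs lay within Mirg, 6 within Rian and 3 within Meg3. The 26 in Mirg held 25 different seeds, and the 2 that shared one, GGUUGCC, are shown together.
miR-453: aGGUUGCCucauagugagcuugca
miR-496a-5p: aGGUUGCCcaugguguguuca
The libraries were made from polyadenylated RNA and give no level of the mature microRNAs.

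In the Kcnq1ot1 cluster on chromosome 7, Cdkn1c was lower in mutants E423 and E440 than in every control. It measured 1294, 1385 and 1373 CPM in controls against 943, 1330 and 949 in mutants. E433 alone lay within the range of the controls. The log2 fold change was -0.33 ± 0.16 (SE, adjusted p = 0.522 by edgeR). Without E433 it was -0.51 (adjusted p = 0.0392 by edgeR), and without E434 it was -0.312 (adjusted p = 0.583). Kcnq1ot1, the paternally expressed RNA that silences the cluster, measured 31.7, 41.6 and 22.7 CPM in controls against 23.7, 60.7 and 24.3 in mutants. Its log2 fold change of 0.18 ± 0.42 became -0.41 without E433 and -0.02 without control E435, so its direction rests on single embryos. Phlda2, which limits growth of the placenta, had 44 to 59 reads per library and a log2 fold change of -0.14 ± 0.19. Ascl2 had 24, 16 and 21 reads in the controls and 49, 14 and 58 in the mutants, which gave a log2 fold change of 0.99 ± 0.53, and Slc22a18 had 38, 20 and 62 reads and then 71, 27 and 56, a log2 fold change of 0.40 ± 0.50. Both genes were lowest in E434 and E433.

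In the Peg3 cluster on chromosome 7 all 3 genes followed E434 and E433. Peg3, a zinc finger protein gene, measured 1099, 1688 and 1019 CPM in controls against 917, 1441 and 862 in mutants. Zim1, its maternally expressed zinc finger neighbor, measured 415, 580 and 375 CPM and then 354, 523 and 350 CPM. Usp29, a deubiquitinase gene, ranged from 43.5 to 59.5 CPM in the controls and from 41.0 to 56.1 CPM in the mutants. The log2 fold changes were -0.24 ± 0.28, -0.16 ± 0.23 and -0.14 ± 0.16 in this order, none larger than its error.

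In the Peg10-Sgce cluster on chromosome 6, Asb4 had the second lowest ratio of the set. Asb4, a maternally expressed gene for a subunit of a ubiquitin ligase, measured 58.4, 75.7 and 56.6 CPM in controls against 28.2, 59.5 and 28.1 in mutants. Mutants E423 and E440 lay well below the lowest control, whereas E433 lay above 2 of the controls. The log2 fold change was -0.72 ± 0.32 (SE, adjusted p = 0.489 by edgeR). Without E433 it was -1.17 (adjusted p = 0.0183 by edgeR), and without E434 it was -0.574 (adjusted p = 0.611). Sgce, the gene for epsilon-sarcoglycan, measured 55.9, 68.7 and 58.8 CPM in controls against 43.0, 57.8 and 44.1 in mutants (log2 fold change -0.34 ± 0.14). Peg10, another gene derived from a retrotransposon, ranged from 575 to 871 CPM in controls against from 481 to 797 in mutants (log2 fold change -0.21 ± 0.25).

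Mest, the paternally expressed mesoderm-specific transcript of chromosome 6, measured 1241, 1696 and 1285 CPM in controls against 798, 1330 and 787 in mutants. As for Cdkn1c and Asb4, E423 and E440 were below all controls while E433 was within their range. For Mest the log2 fold change was -0.53 ± 0.25 (SE, adjusted p = 0.508 by edgeR). Without E433 it was -0.82 (adjusted p = 0.0508 by edgeR), and without E434 it was -0.378 (adjusted p = 0.638). Plagl1 measured 919, 1159 and 868 CPM in controls against 675, 1117 and 665 in mutants, with a log2 fold change of -0.26 ± 0.24. In both genes E434 was the highest control and E433 the highest mutant. A promoter window of each is printed, 250 bases before and 50 bases after the start, from RefSeq on GRCm38.p6. These windows were chosen because they hold the site marked below, so their matches are not a result about the pattern. Another window of Mest, chr6:30733256-30733555, held no match. The capitals mark GCGGCA, the reverse complement of TGCCGC, which is the site that the imprint-keeping zinc finger protein ZFP57 reads when it is methylated.
Mest, chr6:30737800-30738099, plus strand: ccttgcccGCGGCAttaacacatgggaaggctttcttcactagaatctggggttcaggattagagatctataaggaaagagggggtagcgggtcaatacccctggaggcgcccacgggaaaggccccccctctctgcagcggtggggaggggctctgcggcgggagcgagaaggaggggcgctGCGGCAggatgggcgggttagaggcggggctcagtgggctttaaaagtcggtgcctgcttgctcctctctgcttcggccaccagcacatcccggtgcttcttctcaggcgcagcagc
Plagl1, chr10:13090582-13090881, plus strand: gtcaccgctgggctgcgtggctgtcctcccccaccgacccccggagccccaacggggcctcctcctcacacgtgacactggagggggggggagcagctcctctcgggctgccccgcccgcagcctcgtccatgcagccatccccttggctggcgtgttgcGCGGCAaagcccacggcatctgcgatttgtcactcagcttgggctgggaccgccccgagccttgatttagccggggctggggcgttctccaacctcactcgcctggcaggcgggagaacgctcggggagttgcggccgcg
On both strands, TGCCGC was found in 10 of the 44 windows of the 29 members that matched the table (22.7%), against 11.6% of all 32851 windows, whose mean GC content was 53.8% against 56.8% in the windows of the members. Windows of a gene can overlap, as for Mest at chr6:30737800 and chr6:30737803, and each was counted. A match is a run of letters and does not show that the protein bound.

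Grb10, on chromosome 11, measured 1583, 1980 and 1463 CPM in controls against 1288, 1748 and 1256 in mutants (log2 fold change -0.23 ± 0.19). Its neighbor Ddc, the enzyme that makes dopamine and serotonin, was among the steadiest of the set, with 54.0 to 62.5 CPM in the controls, 58.8 to 61.5 CPM in the mutants and a log2 fold change of 0.06 ± 0.08. Gnas and Nnat (neuronatin, a small membrane protein) both lie on chromosome 2. Gnas had a log2 fold change of -0.16 ± 0.17 and Nnat one of -0.07 ± 0.25, with Nnat at 25.9, 15.7 and 25.3 CPM in controls against 18.98, 27.1 and 17.7 in mutants. For Nnat, E434 was the lowest control and E433 the highest mutant.

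In the Snrpn-Ndn cluster on chromosome 7, Ndn, the gene for the growth suppressor necdin, separated the groups by a small margin. It measured 371, 394 and 376 CPM in controls against 328, 362 and 319 in mutants (log2 fold change -0.18 ± 0.09 SE, adjusted p = 0.525 by edgeR). Magel2, a relative of Ndn, ranged from 38.1 to 51.0 CPM in the controls and from 28.7 to 53.9 CPM in the mutants. Peg12, whose protein binds GSK3, ranged from 21.9 to 26.4 CPM in the controls and from 16.4 to 24.6 CPM in the mutants. Snrpn, a splicing protein gene, had a ratio above 0, with values from 6.57 to 8.43 CPM in the controls and from 7.49 to 9.34 CPM in the mutants, with the lowest library of each group in E434 and E433. Log2 fold changes were -0.16 ± 0.26 for Magel2, -0.29 ± 0.17 for Peg12 and 0.18 ± 0.15 for Snrpn.

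The 3 remaining genes stand alone. Peg13, a noncoding RNA within an intron of another gene on chromosome 15, had a log2 fold change of -0.09 ± 0.12, and Inpp5f, an inositol phosphatase gene on chromosome 7, one of 0.01 ± 0.12. For Inpp5f the libraries lay between 17.2 and 21.8 CPM, so this gene was nearly constant. Nap1l5 had 9 to 32 reads per library and a log2 fold change of 0.21 ± 0.51, which its counts cannot place on either side of 0.

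The members differed between libraries of the same group, and mostly in the same direction. In 23 of the 36 genes (63.9%), E434 was the highest control and E433 the highest mutant, a pattern held by 20.3% of all genes tested. Either library alone was the highest of its group in 27 of the 36, against 37.8% of all genes for E434 and 41.5% for E433. The median log2 difference of the members was 0.222 between E434 and E420 and 0.433 between E433 and E423, while over all genes both medians were near 0 (-0.0123 and -0.00947). By size without sign, the median difference of the members was 0.384 between E434 and E420 and 0.46 between E433 and E423. Between E435 and E420 this size was 0.0977, and between E440 and E423 it was 0.047. Over all genes the sizes were 0.277, 0.356, 0.151 and 0.124 in this order. The same 2 libraries had the highest sums of the early chondrocyte markers, as given above, but other tissues had this order too. Markers of connective tissue fibroblasts (8 genes) summed to 9460, 10700 and 9150 CPM in controls and 9610, 12500 and 9540 CPM in mutants. Within each group, hepatocyte markers were also highest in E434 and E433, and keratinocyte markers were lowest there. The part of cartilage or of any other tissue in the pattern was not tested. Slc22a18, Ascl2 and Snrpn were the 3 genes that were lowest in both libraries.

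**Figure D3:**
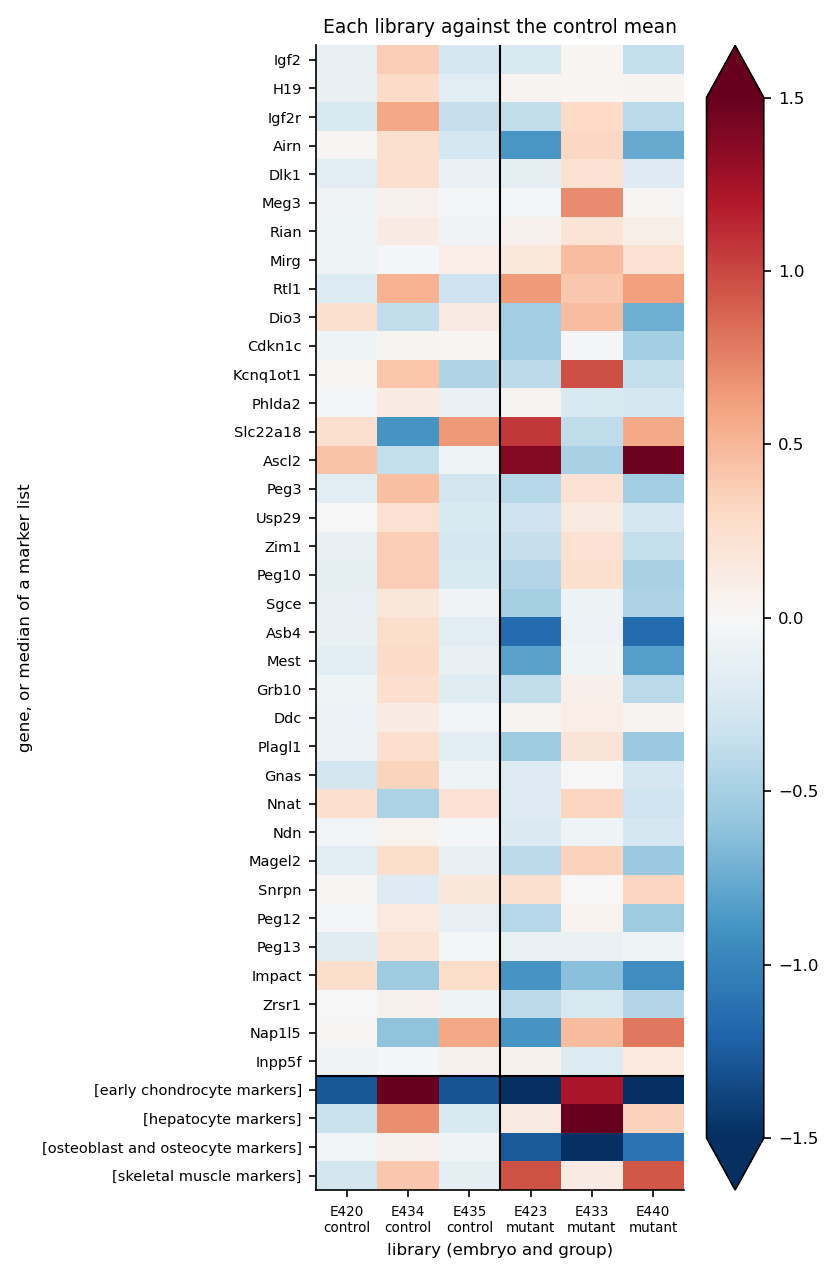
Log2 ratio of each library to the mean log2 level of the controls for the 36 imprinted genes, with the median ratio of 4 marker lists in the bottom rows; colors are capped at 1.5 in either direction. E434 is red for most imprinted genes, E433 is redder than the other mutants for most, and both are red in the early chondrocyte row, while E423 and E440 are blue for most genes.

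Leaving these libraries out changed how many members were called. Without E433, 10 of the 36 genes had an adjusted p under 0.1 by edgeR, 9 with lower values in the mutants (Impact, Asb4, Mest, Cdkn1c, Airn, Plagl1, Sgce, Peg12 and Zrsr1) and 1 with higher values (Ascl2). The same fit called 13.4% of all genes, 6.18% lower and 7.22% higher. Among genes with a mean of at least 10 CPM it called 8 of 29 members, against 20.0% of such genes. Without E434 and E433 together, 23 of the 36 were called, 18 lower and 5 higher, against 37.6% of all genes (18.3% lower and 19.4% higher). Among those with at least 10 CPM it was 20 of 29 members, against 56.0%. The lower calls were led by Impact at -1.18, Asb4 at -1.03, Dio3 at -0.80, Airn at -0.69 and Mest at -0.67, and the higher ones by Ascl2 at 1.24 and Rtl1 at 0.89. This second fit rests on 2 libraries a group that are close to each other, so its errors are small. Its calls take these close libraries as independent, which was not tested. E423 and E440 are also the libraries rich in keratinocyte, adipocyte and muscle markers, and the part of tissue composition in these calls was not tested. When the mean level of the early chondrocyte markers was held as a covariate in all 6 libraries, no member had an adjusted p under 0.1, against 1.89% of all genes, and 9 had an unadjusted p under 0.05, against 13.8%.

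Ratios within a library compare genes of the same cluster and do not depend on scaling between libraries. No difference could be called for any of 9 pairs: with 3 against 3 libraries the exact permutation test (2-sided) cannot go below 0.1, and the lowest adjusted p was 0.9. Meg3 over Dlk1 reached the smallest p of 0.1, with log2 ratios of -1.41, -1.70 and -1.42 in the controls and -1.38, -1.03 and -1.31 in the mutants, a difference of 0.27. The mutant values lay above all control values, by a small margin between E423 and E420. The difference was 0.168 without E433, 0.176 without E434 and 0.073 without both. H19 over Igf2 went from 4.88 ± 0.08 to 5.10 ± 0.20 (SD, n = 3, exact permutation p = 0.3). The level of this ratio is too high, because the read counts hold only a small part of the Igf2 RNA, as described below. With RSEM counts the difference was 0.195. Airn over Igf2r went from -4.59 ± 0.31 to -4.86 ± 0.26 (n = 3, exact permutation p = 0.2), and Kcnq1ot1 over Cdkn1c from -5.44 ± 0.44 to -5.02 ± 0.49 (n = 3, exact permutation p = 0.4). Without E433 the difference of Kcnq1ot1 over Cdkn1c was 0.141, and without E435 it was 0.184. That of Airn over Igf2r was -0.423 without E433, -0.449 without E434 and -0.595 without both, but -0.149 without E420 and -0.168 without E423. That of H19 over Igf2 was 0.337 without E433 and 0.137 without E440. The other 5 pairs (Rian over Meg3, Mirg over Meg3, Usp29 over Peg3, Sgce over Peg10, and Magel2 over Ndn) differed by -0.12 to 0.10, with exact permutation p from 0.5 to 1.0.

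**Figure D4:**
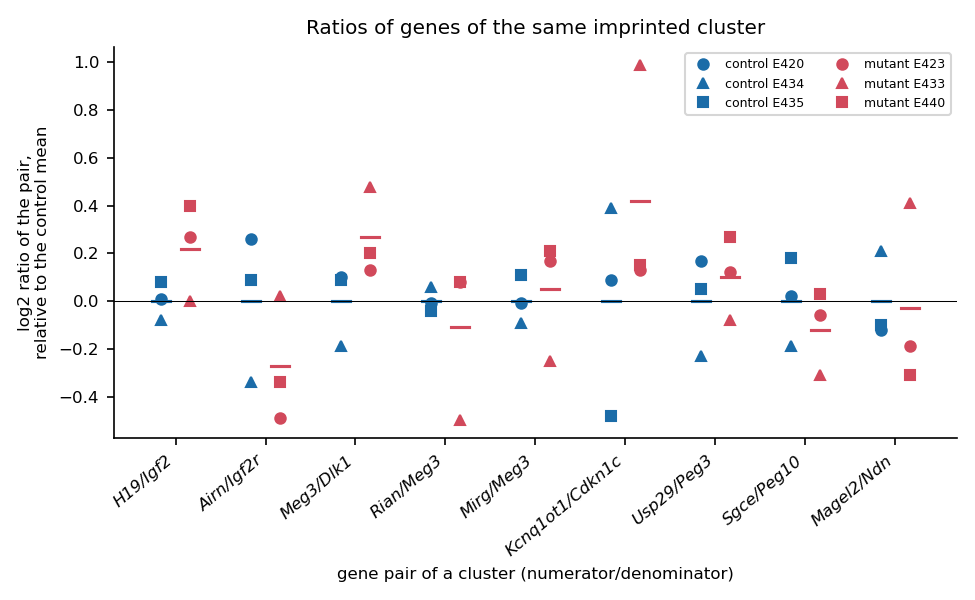
Log2 ratio of 9 gene pairs of the same cluster in each library, drawn relative to the mean of the controls; short bars are group means, blue is control, red is mutant, and triangles mark E434 and E433. Only for Meg3 over Dlk1 do all mutants lie above all controls, and E433 lies apart for Rian over Meg3 and Kcnq1ot1 over Cdkn1c.

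Several imprinted genes overlap other annotated genes, and the counting handled them unevenly. Over all genes, the deposited read counts held 1.95 to 1.96 reads per fragment of the RSEM estimate, since both ends of a fragment were counted. For Igf2 the figure was at most 0.13, with 64.5% of its exon bases shared, most of them (62.8%) with Gm49394 on the same strand. For Gnas it was at most 0.117, with 21.6% of exon bases shared with Gm20721 and Nespas on the other strand. Snrpn (at most 1.13), Cdkn1c (1.27) and Mest (1.30) were also low, and share 34.1%, 30.7% and 23.1% of their exon bases. The read counts thus hold a small part of the RNA that RSEM assigned to Igf2 and Gnas, and the ranks above were taken from TPM values. The comparison between the groups moved little: with RSEM counts the log2 fold changes were -0.15 for Igf2, -0.12 for Gnas, -0.30 for Cdkn1c, -0.56 for Mest and 0.27 for Snrpn.

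**Figure D5:**
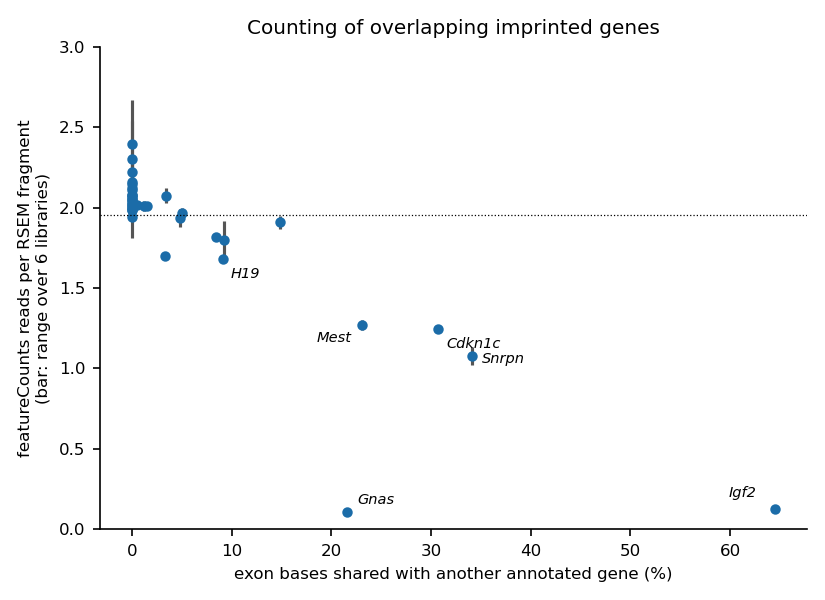
Reads counted per RSEM fragment (midpoint and range over the 6 libraries) for the 36 imprinted genes against the share of their exon bases that another annotated gene covers; the dotted line is the mean over all genes. Igf2 and Gnas lie near 0.1 while genes without overlap lie near 2.

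Other parts of the IGF pathway were read for context. Of 12 genes for further IGF receptors and for proteins that bind IGFs or the Igf2 mRNA, none had an adjusted p under 0.1 by edgeR. An unadjusted p under 0.05 was found for 3, all with lower values in the mutants, against 10.6% of all genes, 4.7% lower. By DESeq2 1 had an adjusted p under 0.1, against 3.57% of all genes. Igfbp5, a binding protein abundant in skeletal tissue, measured 1144, 1361 and 1057 CPM in controls against 588, 946 and 561 in mutants (log2 fold change -0.77 ± 0.23) (adjusted p = 0.390 by edgeR and 0.0333 by DESeq2). All mutants were below all controls. Igfbp3 and Igf2bp3 had log2 fold changes of -0.26 ± 0.09 and -0.18 ± 0.07, again with no overlap between the groups. All mutants were below all controls in 4 of the 12 genes, against 8.21% of all genes.

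Of 12 factors that keep imprints, such as DNA methyltransferases and the ZFP57 partner Trim28, 11 were tested and none had an adjusted p under 0.1 by edgeR. An unadjusted p under 0.05 was found for 1, against 10.6% of all genes. The same 1 had an adjusted p under 0.1 by DESeq2, against 3.57% of all genes. That gene, Dnmt3l, a cofactor of germline methylation, was near the floor of detection, with 0.204, 0 and 0.124 CPM in controls against 1.203, 0.371 and 0.802 in mutants. Trim28 and Dnmt3a, with log2 fold changes of -0.12 ± 0.08 and -0.18 ± 0.17, were the next by p.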

How the data were processed

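Per the labels and the methods of the study, rib cage RNA was made into stranded mRNA libraries and sequenced as paired ends. The deposited read counts per gene were made by the authors with featureCounts 1.6.0 (primary alignments, exons of GENCODE M25, each end counted, no strand setting, reads over several genes left out). Deposited expected counts and TPM values were made by the authors with RSEM 1.2.31, and the sources also name HISAT2 2.1.0 and STAR 2.7.6 as aligners. The authors' tables of their own comparisons hold fold changes, p-values and 12 columns of values for single samples, and these tables were not used. Counts were analysed with edgeR 4.0.16 (TMM, quasi-likelihood test, genes whose counts over the 6 libraries came to 10 or more) and with DESeq2 1.42.0 as an alternative, and CPM uses TMM library sizes. Expected counts were rounded before testing. Ratios of gene pairs used log2 CPM with a prior count of 2. Positions and exon overlaps of the genes are from the exon coordinates deposited with the read counts. Gene types, coding intervals and transcript sequences are from GENCODE M21, which shares the build GRCm38. Positions of microRNAs and promoters are from RefSeq. The edgeR step was tested on simulated counts. These had a common dispersion for all genes and no library that stood apart, so they do not give the power of the test in these libraries. Every member is named; of the lists beside them, the genes past the limits and up to 3 with the lowest p. Members, lists and tests were chosen with earlier results of these data known, and expressed alleles and growth roles are textbook knowledge. Nothing says that embryos of a group came from separate litters, so p-values measure the spread between these samples.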

Additional observations from a re-analysis of the deposited data

How the results depend on the processing

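Of the 36 genes, 20 kept the direction of their log2 fold change under all 13 alternatives, 14 changed it when 1 library was left out and 11 under another setting, some of them under both; DESeq2 size factors, filterByExpr, and a prior count of 0.5 or RSEM counts for the pairs turned none. No paired analysis was possible because the sources used here do not say which embryos were littermates, and the groups share no embryo number. Reversed values without E434 and E433 were -0.172 for Kcnq1ot1, 0.017 for Peg13, -0.133 for Nap1l5 and 0.107 for Rian over Meg3. With the early chondrocyte covariate they were 0.137 for Igf2r, 0.113 for Dlk1, -0.076 for Slc22a18, 0.015 for Peg3, 0.054 for Zim1, 0.008 for Peg10, 0.033 for Magel2 and -0.062 for Inpp5f. Leaving out 1 library gave Igf2 -0.327 to 0.010, H19 -0.066 to 0.185, Igf2r -0.443 to 0.172, Dlk1 -0.178 to 0.105, Dio3 -0.639 to 0.034, Kcnq1ot1 -0.412 to 0.413, Peg3 -0.508 to 0.020, Zim1 -0.370 to 0.052, Gnas -0.288 to 0.024, Nnat -0.275 to 0.056, Magel2 -0.484 to 0.010, Peg13 -0.178 to 0.013, Nap1l5 -0.130 to 0.557 and Inpp5f -0.065 to 0.107, and the pairs Rian over Meg3 -0.212 to 0.079, Mirg over Meg3 -0.038 to 0.193, Usp29 over Peg3 -0.011 to 0.193 and Magel2 over Ndn -0.245 to 0.116. The cause was not tested. The member median ranged from -0.30 to -0.00 with 1 library left out.

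Over all genes, 8 lower and 9 higher passed both limits with edgeR. DESeq2 called 122 and 355, no filter 15 and 22, RSEM counts 5 and 5, the fit without E434 and E433 648 and 1418, the covariate 72 and 168, an adjusted p under 0.01 0 and 0, and leaving out 1 library 0 to 353 and 0 to 734, the highest without E433. Members with an adjusted p under 0.1 numbered 1 with DESeq2, 23 without both libraries and 0 to 10 with 1 left out. Those with an unadjusted p under 0.05 numbered 7 with DESeq2, 6 with no filter, 24 without both, 9 with the covariate and 1 to 14 with 1 left out. Of the other imprinted genes, 20 had an adjusted p under 0.1 without both libraries and 0 to 7 with 1 left out, against 0 with all.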

Other observations

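A further 42 genes reported as imprinted in mouse tissues, many of them only in the placenta or the brain, were read as a second set, and 39 of them were tested. None had an adjusted p under 0.1 by edgeR or DESeq2. By edgeR 3 had an unadjusted p under 0.05, 2 lower and 1 higher in the mutants, against 10.6% of all genes. The groups did not overlap for 3 genes downward and 4 upward, against 8.21% and 6.81% of all genes. Their median log2 fold change was 0.01, with 18 below 0 and 21 above. Smoc1, a secreted calcium-binding protein gene, measured 15.5, 20.7 and 13.5 CPM in controls against 26.6, 20.6 and 23.3 in mutants (log2 fold change 0.50 ± 0.18), with control E434 just above mutant E433. Calcr, the calcitonin receptor of osteoclasts, measured 4.58, 5.65 and 5.26 CPM in controls against 4.26, 2.83 and 3.75 in mutants (-0.51 ± 0.19), and its groups did not overlap. Klf14, a transcription factor gene next to Mest, measured 29.0, 32.6 and 28.3 CPM in controls against 20.6, 27.2 and 17.5 in mutants (-0.46 ± 0.17), again without overlap.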
